A study of Homo sapiens with 6 samples.

Results

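The glycosyltransferase families described here build and cap the sugar chains of glycoproteins and glycolipids. They were taken as every row of the count table whose gene symbol is GALNT, ST3GAL, ST6GAL, ST6GALNAC, ST8SIA, FUT, B3GNT, B3GALT, B4GALT, B4GALNT or GCNT followed by a number, with a single GCNT row not analysed here. That gave 78 genes of the 38167 in the table. The libraries came from spheroids of Cal27, an established human line of squamous carcinoma of the tongue. In the stiff group the spheroids sat in Matrigel, a gel of basement membrane proteins, at 12 mg/mL. In the soft group the gel was at 3 mg/mL. Both groups were cultured by liquid overlay and harvested on day 14, with 3 replicate libraries in each. The labels call the replicates biological but name no separate cultures or days behind them, so p-values speak of the spread among these 6 libraries. More Matrigel also means more matrix protein, so stiffness and ligand amount cannot be told apart.

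These enzymes sit mostly in the Golgi, where each adds a single kind of sugar to a particular acceptor. GALNT enzymes start mucin-type O-glycans by placing GalNAc on serine or threonine. B3GALT and B4GALT enzymes add galactose, B3GNT enzymes extend chains with GlcNAc, GCNT enzymes make branches, and B4GALNT enzymes add GalNAc to existing chains. Sialyltransferases (ST3GAL, ST6GAL, ST6GALNAC and ST8SIA) and many fucosyltransferases (FUT) then cap the chains. Not every FUT enzyme caps: FUT8 adds the core fucose of N-glycans. In epithelia, including squamous carcinomas, the caps form antigens such as the Lewis and sialyl-Tn structures, and several are read by lectins and selectins.

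Of the 78 genes, 60 had enough counts to be tested and 18 did not. In stiff relative to soft Matrigel, 16 of the 60 rose and 22 fell at an adjusted p below 0.05 in edgeR's quasi-likelihood test. Over all 18676 tested genes, 25.3% rose and 23.8% fell, or 49.1% in either direction, against 26.7%, 36.7% and 63.3% of the tested glycosyltransferases. At least 2-fold changes were called higher for 5 members (8.33%) and lower for 12 members (20%), where 7.6% and 5.62% of all tested genes were called. The members' median log2 fold change was -0.08, and that of all tested genes was 0.00. In 42 of the 60 (70%) the stiff and soft values did not overlap, beside 59.9% of all genes tested. GALNT14, included in these counts, passed the count filter through the soft libraries only. In bulk libraries, fewer cells that make a transcript and less of it per cell cannot be told apart.

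**Figure D1:**
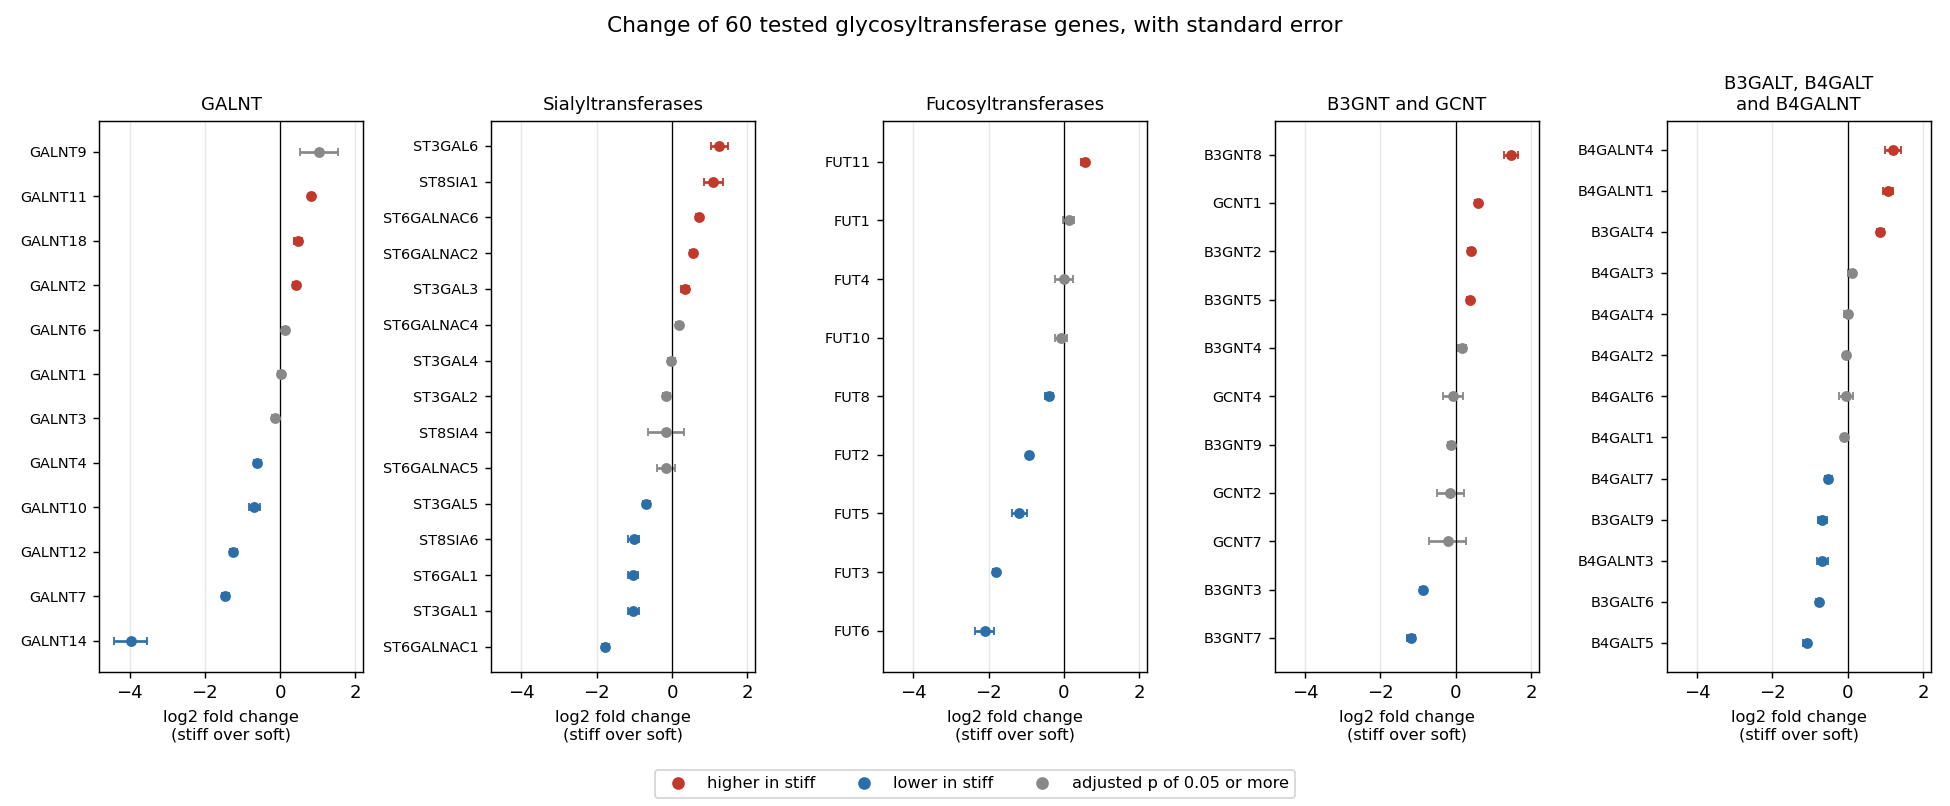
Log2 fold change (stiff over soft, horizontal axis) with its standard error for the 60 tested genes, in 5 panels by enzyme class; red points rose, blue points fell and grey points had an adjusted p of 0.05 or more. Fucosyltransferases hold 5 falls and 1 rise, sialyltransferases 5 of each, and GALNT14 lies farthest left at -3.97.

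Counted fragments per library ran between 30656278 and 40583044. Stiff replicate 2 stood apart on the second principal component (10.8% of the variance; score -35, against 21.5 and 18.3 in the other stiff libraries), and its median gap to the other stiff libraries over the tested members was 0.15 on the log2(CPM + 0.5) scale, against 0.08 to 0.12 in the other 5 libraries. Leaving out any single library left 15 or 16 members higher and 22 or 23 lower. The squamous markers KRT5 (6486 CPM in stiff and 1970 CPM in soft) and TP63 (499 and 311 CPM) were abundant in both conditions, where CPM is the count over the TMM-scaled library size, in units of 1e6. All 8 squamous markers differed: 6 rose and 2 fell, with a summed level of 18859 to 20253 CPM in stiff and 5846 to 6508 CPM in soft. Of markers of other cell types, PTPRC, COL3A1, DCN, KDR and LYZ averaged 0.2 CPM or less in both conditions. The fibroblast list summed to 99.1 to 106 CPM in stiff and 72.8 to 80.3 CPM in soft, most of it COL1A1, with 2 of 4 tested markers higher and 0 lower; LUM was at 17.3 CPM in stiff and 2.31 CPM in soft. The leukocyte list summed to 104 to 110 CPM in stiff and 55.9 to 62.7 CPM in soft, most of it the lysosomal gene CD68, with 2 of 3 tested markers higher and 0 lower. The endothelial list summed to 3.62 to 4.96 CPM in stiff and 10.9 to 13.8 CPM in soft, with 1 of 3 tested markers higher (VWF, at 3.22 and 1.58 CPM) and 1 lower (CDH5, at 0.552 and 10.4 CPM). The part of these markers in the results below was not tested.

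Some tested members share exon sequence with genes that GENCODE release 29 annotates but that have no row under that name in the count table, so reads of that gene could count for the member. On the same strand this applied for 82.5% of the exons of FUT5, 47% of ST6GALNAC6, 38.5% of ST6GALNAC2 and 10% of ST3GAL3. On the opposite strand it held for 21.1% of GALNT12, 18.4% of B3GNT8, 14.9% of B3GNT9, 13.3% of GALNT2 and 11.6% of FUT11. The counts of these 9 members are uncertain, and the share of their reads that comes from the other gene is not known. Overlaps with genes that have a row are given beside the member.

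The 18 untested genes had between 0 and 17 counts in any library. They were GALNT5, GALNT8, GALNT13, GALNT15, GALNT16 and GALNT17 of the initiating enzymes, ST6GAL2, ST6GALNAC3, ST8SIA2, ST8SIA3 and ST8SIA5 of the sialyltransferases, and FUT7 and FUT9 of the fucosyltransferases. B3GNT6, B3GALT1, B3GALT2, B3GALT5 and B4GALNT2 completed the set. GALNT8 and ST8SIA3 had 0 counts in all 6 libraries. Several of these are known for restricted expression, such as ST8SIA2 and ST8SIA3 in brain, FUT7 in leukocytes and B3GNT6 in the gut.

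Levels of different genes are compared here per length, as CPM per kilobase of merged exons. The deposited TPM values are also per length, but their lengths grew with the number of annotated transcripts. Relative to genes with 1 RefSeq transcript, the implied length over the merged exon length had a median of 2.92 for genes with 4 to 6 transcripts and 6.53 for those with 12 or more. On the merged exon scale, and by the mean over all 6 libraries, the most abundant member was B4GALT5, at 58.8 CPM per kb in stiff and 125 in soft. It was followed by B4GALT1 (51.1 in stiff and 54.3 in soft), GALNT2 (41.4 and 31.2), GALNT3 (27.5 and 30.4), ST6GALNAC2 (29.1 and 19.8) and B4GALT2 (21.3 and 21.9 CPM per kb). The order differed by condition: in stiff ST6GALNAC2 averaged above GALNT3, and FUT3, at 6.64 CPM per kb in stiff and 23.3 in soft, averaged in soft above ST6GALNAC2 and B4GALT2. In soft the value of B4GALT5 was above that of B4GALT1 in every library. In stiff the order of this pair differed between libraries, with 62.5, 48.6 and 65.3 CPM per kb for B4GALT5 and 52.4, 49.6 and 51.2 for B4GALT1. Summed over all 78 genes, the level was 450 ± 11.9 CPM per kb in stiff and 539 ± 5.08 in soft (SD, n = 3).

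Promoter sequences were available for 55 of the 78 genes (RefSeq, GRCh38.p14, 250 bases before to 50 after an annotated start). The FUT3 window belongs to a start inside the gene, not to the outer end at 5857122, so its values describe that window only. They are shown for 5 genes whose results follow: FUT3 and FUT6, paralogs that both fell; GALNT7 and B4GALT5, abundant genes that fell; and B4GALNT4, which rose. Capitals mark matches, on either strand, to the TATA box TATAAA, the CCAAT box and the GC box GGGCGG; no motif contains another.
FUT3 promoter, chr19:5851400-5851699, minus strand: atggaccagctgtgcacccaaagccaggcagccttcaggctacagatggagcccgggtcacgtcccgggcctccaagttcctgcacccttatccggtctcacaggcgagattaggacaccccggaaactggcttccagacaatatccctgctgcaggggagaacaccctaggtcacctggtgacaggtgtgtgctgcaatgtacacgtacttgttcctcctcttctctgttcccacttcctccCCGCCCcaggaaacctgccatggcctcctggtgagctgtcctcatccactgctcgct
FUT6 promoter, chr19:5839653-5839952, minus strand: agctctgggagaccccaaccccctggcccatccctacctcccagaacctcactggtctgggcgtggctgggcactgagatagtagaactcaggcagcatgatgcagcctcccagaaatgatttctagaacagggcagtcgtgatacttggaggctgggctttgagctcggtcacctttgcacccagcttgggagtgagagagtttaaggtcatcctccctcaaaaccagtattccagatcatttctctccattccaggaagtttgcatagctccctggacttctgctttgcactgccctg
GALNT7 promoter, chr4:173168561-173168860, plus strand: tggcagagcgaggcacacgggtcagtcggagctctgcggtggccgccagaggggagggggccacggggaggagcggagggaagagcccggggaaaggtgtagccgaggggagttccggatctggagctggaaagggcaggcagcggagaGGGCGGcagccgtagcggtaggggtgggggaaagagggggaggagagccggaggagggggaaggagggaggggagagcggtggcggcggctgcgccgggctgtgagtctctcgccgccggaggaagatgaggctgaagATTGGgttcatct
B4GALT5 promoter, chr20:49713829-49714128, minus strand: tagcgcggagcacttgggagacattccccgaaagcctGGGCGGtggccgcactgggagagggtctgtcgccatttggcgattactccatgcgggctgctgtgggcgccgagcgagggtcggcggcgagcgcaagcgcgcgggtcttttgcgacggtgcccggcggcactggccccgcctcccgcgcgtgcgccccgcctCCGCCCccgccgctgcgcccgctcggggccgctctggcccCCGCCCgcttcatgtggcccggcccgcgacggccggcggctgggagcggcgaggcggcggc
B4GALNT4 promoter, chr11:369249-369548, plus strand: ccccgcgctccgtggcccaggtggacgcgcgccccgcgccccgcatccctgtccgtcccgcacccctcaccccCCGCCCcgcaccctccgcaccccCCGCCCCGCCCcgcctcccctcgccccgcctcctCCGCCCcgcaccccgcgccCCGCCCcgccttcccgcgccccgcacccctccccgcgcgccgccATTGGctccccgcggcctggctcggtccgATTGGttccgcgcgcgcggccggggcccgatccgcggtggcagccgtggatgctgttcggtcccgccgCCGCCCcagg
The FUT3 window held 1 GC box and the FUT6 window held none of the 3 motifs, with 9 and 3 CpG dinucleotides and 59.3% and 54.3% G or C. The GALNT7 window held 1 GC box and 1 CCAAT box (23 CpG, 69.7% G or C), and that of B4GALT5 held 3 GC boxes (47 CpG, 77.3%). B4GALNT4 had 6 GC boxes and 2 CCAAT boxes (50 CpG, 83.7%). Of all 35116 promoters of this length, 45% hold the GC box, 34.6% the CCAAT box and 11.5% the TATA box. Those shares count single windows, whereas a member counted here if any of its windows matched (90 windows for the 55 genes). The shares and the counts below are therefore not on the same measure. Among members with a promoter, the GC box was found for 10 of 11 that rose, 15 of 16 that fell, 13 of 15 that passed no threshold and 9 of 13 untested. The CCAAT box was found for 8, 6, 7 and 3 of them, and the TATA box for 0, 0, 0 and 1.

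The GALNT enzymes, which decide where O-glycans start, changed in both directions. Of 12 tested, 3 rose, 5 fell and 4 did not pass (median log2 fold change -0.06). Beside this and each class count below, 25.3% of all tested genes rose and 23.8% fell. GALNT2, a broadly acting initiator and the most abundant of them, had 329, 298 and 334 CPM in stiff libraries, against 238, 235 and 252 CPM in soft libraries. All 3 stiff values lay above the soft values (1.33-fold, log2 fold change 0.41 ± 0.07 SE, adjusted p = 0.000933). With limma on the deposited TPM the log2 fold change of GALNT2 was 0.29 in each of 3 settings. It passed for log2(TPM + 1) at a mean TPM of at least 1 (adjusted p = 0.0484), but not for log2(TPM + 0.1) (adjusted p = 0.0507) or unfiltered log2(TPM + 1) (adjusted p = 0.0811), within a range of 5.69e-07 to 0.0811 over all alternatives. GALNT11, known for acting on LDL receptor family proteins, rose 1.78-fold to 118 ± 4.82 CPM in stiff, against 66.5 ± 1.91 CPM in soft (SD, n = 3, adjusted p = 6.27e-06). GALNT18 rose 1.4-fold.

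The falls included enzymes that prefer peptides already carrying a GalNAc. GALNT7, which acts on such glycopeptides, had 43.9, 36.6 and 44.4 CPM in stiff libraries, against 118, 109 and 116 CPM in soft libraries. The groups lay far apart relative to their spread (2.75-fold lower, log2 fold change -1.46 ± 0.09 SE, adjusted p = 1.02e-06). GALNT10, of the same acceptor preference, was at 7.9 ± 1.61 CPM in stiff and 12.7 ± 1.52 CPM in soft (SD, n = 3, adjusted p = 0.00403). GALNT12, the gene of a colon-expressed initiator, had 13.4, 12.5 and 14.1 CPM in stiff libraries, against 31, 30 and 33.7 CPM in soft libraries (2.37-fold lower, log2 fold change -1.24 ± 0.09 SE, adjusted p = 2.8e-06). Its stiff values were close together and all below the soft values.

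GALNT14, known for glycosylating death receptors, had 2, 5 and 2 counts in stiff libraries, against 68, 52 and 29 counts in soft libraries. The ratio of summed levels was 16.5-fold lower in stiff, with exact 95% bounds from the counts alone at 8.45 and 36.7 (adjusted p = 5.89e-05). It passed the count filter through the soft libraries only, which favoured a fall in advance. These values are therefore a description and not support for the fall. At 1.36 ± 0.378 CPM in soft it was a minor transcript even where it was highest. GALNT4 fell 1.53-fold (15.3 ± 1.05 CPM in stiff and 23.4 ± 1.85 CPM in soft), but 93.2% of its exons belong also to the readthrough gene POC1B-GALNT4. That row held 99.9% to 106% of the GALNT4 count in each library, so these 2 rows are not independent measurements. GALNT3, the second most abundant enzyme of the class, was at 129 ± 7.95 CPM in stiff and 142 ± 11.5 CPM in soft (adjusted p = 0.166). GALNT1 (45.4 and 44.7 CPM), GALNT6 (26.1 and 24 CPM) and GALNT9 (0.349 and 0.167 CPM) also did not pass (adjusted p = 0.12 to 0.832).

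Summed over the class, GALNT levels were 109 to 119 CPM per kb in stiff and 113 to 123 CPM per kb in soft, so the ranges overlapped. The make-up differed. GALNT2 held 35.7 ± 0.441% of the sum in stiff and 26.3 ± 0.64% in soft, GALNT11 12.4 ± 1.17% and 6.75 ± 0.0821%, and GALNT7 5.22 ± 0.289% and 14 ± 0.29% (SD, n = 3). On the deposited TPM scale the share of GALNT2 was 49.1% in stiff and 35.9% in soft.

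**Figure D2:**
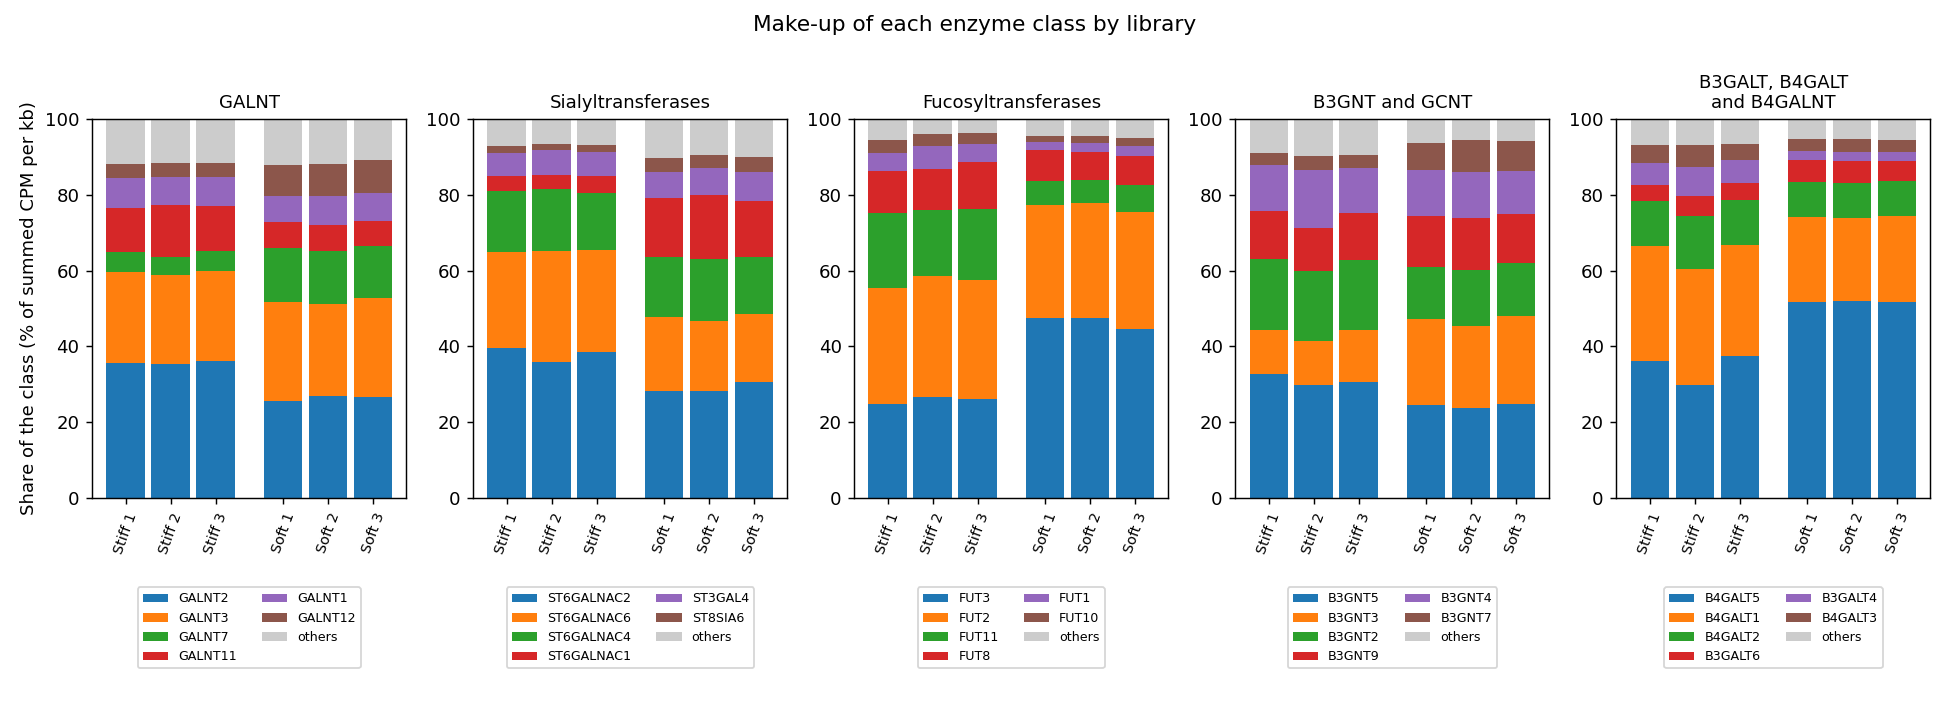
Share of each class's summed CPM per kb (vertical axis, percent) held by its 6 most abundant genes and by the others, in each of 3 stiff and 3 soft libraries. FUT3 holds 25.8% of the fucosyltransferase sum in stiff and 46.5% in soft, and B4GALT5 holds 34.5% and 51.7% of the galactosyl and GalNAc class.

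The enzymes that add GlcNAc to growing chains changed in both directions. Of 11 tested B3GNT and GCNT genes, 4 rose, 2 fell and 5 did not pass (median log2 fold change -0.07). GCNT1, which makes the core 2 branch of O-glycans, had 30.2, 31.8 and 30.3 CPM in stiff libraries, against 20.4, 19.8 and 21.6 CPM in soft libraries. Each stiff value exceeded each soft value (1.49-fold, log2 fold change 0.58 ± 0.08 SE, adjusted p = 0.000178). B3GNT3, which instead extends the unbranched core 1 chain, had 16.6, 16.7 and 18.8 CPM in stiff libraries, against 31, 30.5 and 33.6 CPM in soft libraries (1.83-fold lower, adjusted p = 2.61e-05). Its share of the class was 12.2 ± 1.17% in stiff and 22.6 ± 0.739% in soft (SD, n = 3).

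B3GNT2, the main enzyme of polylactosamine chains, rose 1.32-fold to 32.9 ± 0.894 CPM in stiff, against 24.9 ± 1.06 CPM in soft (adjusted p = 0.00157). B3GNT8, which acts together with B3GNT2 on N-glycans, had 3.36, 4.29 and 3.38 CPM in stiff libraries, against 1.4, 1.17 and 1.41 CPM in soft libraries. This was the largest rise among the tested members (2.76-fold, log2 fold change 1.47 ± 0.19 SE, adjusted p = 0.00014), from a low level. B3GNT7, known for the polylactosamine backbone of keratan sulfate, went the other way, with 7.71, 8.44 and 7.87 CPM in stiff libraries, against 16.2, 19.3 and 19.3 CPM in soft libraries (2.28-fold lower, log2 fold change -1.19 ± 0.11 SE, adjusted p = 1.28e-05). B3GNT5, the first enzyme of lacto-series glycolipids, rose 1.29-fold to 156 ± 7.66 CPM in stiff, against 121 ± 4.8 CPM in soft (adjusted p = 0.00145). MCF2L2, on the opposite strand, covers 16.2% of the B3GNT5 exons and had 1038 to 2363 counts per library, so the B3GNT5 count is uncertain.

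B3GNT9, the highest of the family by deposited TPM, had 22.8, 21.2 and 21.8 CPM in stiff libraries, against 23.2, 24.6 and 24.1 CPM in soft libraries. The difference did not pass (adjusted p = 0.188) though the values did not overlap. B3GNT4 was at 38.2 ± 6.27 CPM in stiff and 33.9 ± 1.03 CPM in soft (adjusted p = 0.224), with DIABLO over 20.7% of its exons on the opposite strand. GCNT2, GCNT4 and GCNT7, further branching enzymes, lay between 0.299 and 1.34 CPM on average in either condition and did not pass (adjusted p = 0.736 to 0.843). GCNT7 had 0.174, 0.224 and 0.499 CPM in stiff libraries, against 0.481, 0.352 and 0.193 CPM in soft libraries, with overlapping groups. The summed level of the class was 60.1 to 63.2 CPM per kb in stiff and 59.5 to 62.9 CPM per kb in soft. By deposited TPM the sum was lower in stiff (122 to 128, against 138 to 142 in soft). By CPM without regard to length it was higher (300 to 317, against 272 to 287). The direction of the class sum therefore depended on the scale.

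Among the enzymes that add galactose or GalNAc, 3 of 13 tested rose, 5 fell and 5 did not pass (median log2 fold change -0.05). B4GALT5 (Entrez 9334, chromosome 20, 49632945 to 49713878), which makes lactosylceramide, the base of most glycolipids, had 295, 229 and 308 CPM in stiff libraries, against 594, 595 and 579 CPM in soft libraries. Even the highest stiff library was far below the lowest soft library (2.12-fold lower, log2 fold change -1.09 ± 0.10 SE, adjusted p = 1.96e-05). Stiff replicate 2 gave the lowest value. The other B4GALT genes mostly did not differ past the threshold: B4GALT1, the chief galactosyltransferase of N-glycans, was at 250 ± 6.99 CPM in stiff and 266 ± 3.38 CPM in soft (adjusted p = 0.253). B4GALT2, B4GALT3, B4GALT4 and B4GALT6 had log2 fold changes between -0.05 and 0.11 (adjusted p = 0.349 to 0.999). PPOX covers 28.7% of the B4GALT3 exons on the opposite strand.

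The pair that adds the galactoses of the proteoglycan linker fell together. B3GALT6 had 20.7, 24.9 and 22.7 CPM in stiff libraries, against 39.4, 40.6 and 35.7 CPM in soft libraries (1.7-fold lower, adjusted p = 9.68e-05). B4GALT7, which adds the galactose before it, had 14.4, 12.6 and 12.6 CPM in stiff libraries, against 18.7, 17.9 and 19.5 CPM in soft libraries (1.42-fold lower, adjusted p = 0.0014). B3GALT9 fell 1.59-fold (adjusted p = 0.000738), but FBXW2 covers 16.1% of its exons on the opposite strand and held 3100 to 4566 counts per library, against 184 to 353 for B3GALT9.

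The B4GALNT genes divided. B4GALNT4, which makes the GalNAc-GlcNAc unit known as LacdiNAc, had 2.75, 2.55 and 2.08 CPM in stiff libraries, against 1.08, 0.909 and 1.22 CPM in soft libraries (2.3-fold, log2 fold change 1.20 ± 0.21 SE, adjusted p = 0.00109). B4GALNT3, which makes the same unit, had 4.61, 4.18 and 3.6 CPM in stiff libraries, against 7, 6.42 and 6.21 CPM in soft libraries (1.59-fold lower, adjusted p = 0.00256). So the 2 genes of that unit moved in opposite directions, each without overlap between the groups. The summed level of the class was 170 ± 6.39 CPM per kb in stiff and 241 ± 3.23 in soft (SD, n = 3), and B4GALT5 held 34.5 ± 4.06% and 51.7 ± 0.18% of it. On the deposited TPM scale its share was 51.2% in stiff and 68.6% in soft.

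**Figure D3:**
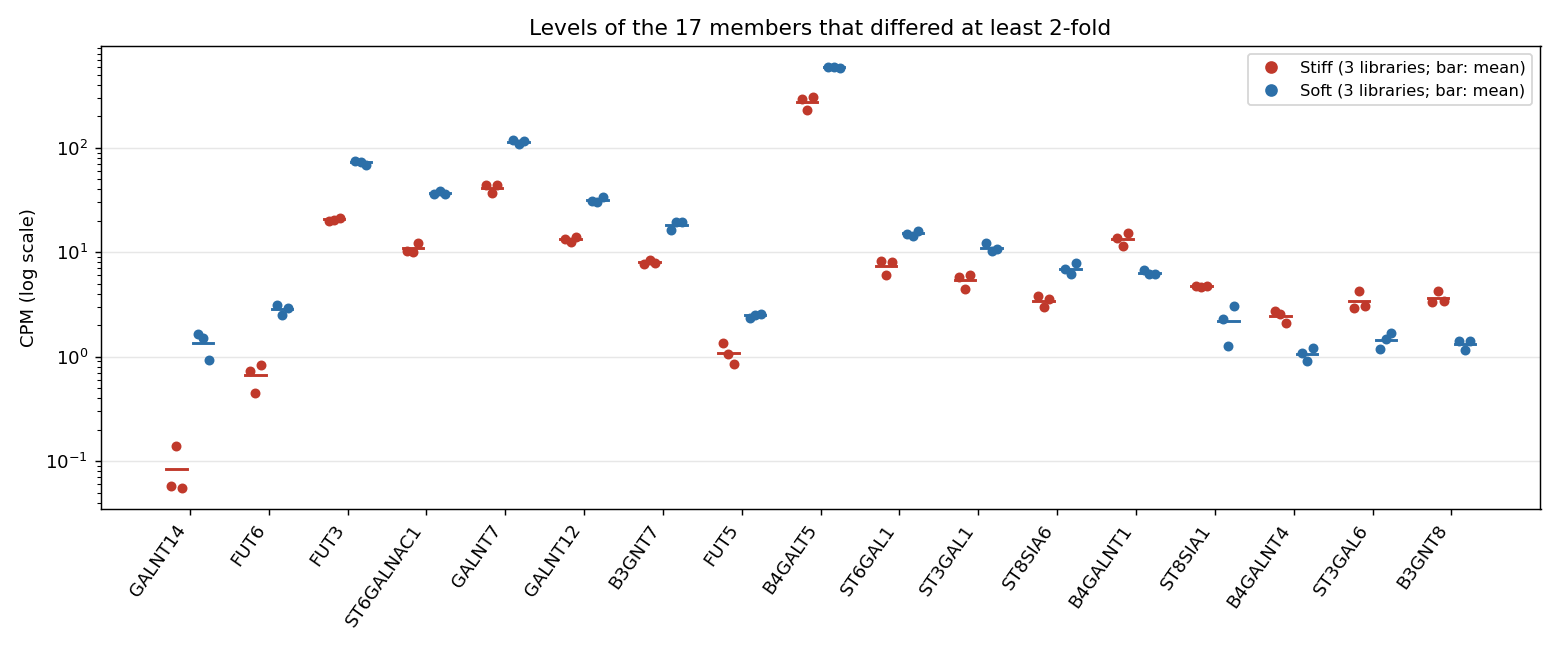
CPM (log axis) of the 17 members that differed at least 2-fold, with 3 stiff libraries (red, left) and 3 soft libraries (blue, right) per gene and bars at the means. The 12 genes on the left fell and the 5 on the right, B4GALNT1 to B3GNT8, rose; the stiff and soft points overlap in none of them.

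Sialyltransferases changed in equal numbers, with 5 of 15 tested higher, 5 lower and 5 not past the threshold (median log2 fold change -0.15). ST6GALNAC1 (Entrez 55808, chromosome 17, 76617407 to 76643757), the enzyme of the sialyl-Tn antigen, had 10.2, 10.1 and 12.3 CPM in stiff libraries, against 36.1, 38.6 and 36.3 CPM in soft libraries. It fell 3.4-fold, with every stiff value below every soft value (log2 fold change -1.77 ± 0.10 SE, adjusted p = 6.76e-07). Its neighbour ST6GALNAC2 (Entrez 10610, chromosome 17, 76565377 to 76585860), which prefers the galactose-bearing core 1 chain, lies 31.5 kb away and had 93.2, 84.9 and 92 CPM in stiff libraries, against 58.4, 58.6 and 66.7 CPM in soft libraries (1.47-fold higher, log2 fold change 0.56 ± 0.08 SE, adjusted p = 0.000257). The 2 genes therefore moved in opposite directions.

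ST6GALNAC6, which acts on glycolipids, had 103, 119 and 110 CPM in stiff libraries, against 70.2, 64.9 and 67.8 CPM in soft libraries (1.64-fold higher, log2 fold change 0.71 ± 0.07 SE, adjusted p = 3.94e-05). ST6GALNAC4, whose gene lies 1.27 kb from it, was at 32 ± 1.32 CPM in stiff and 28.2 ± 0.8 CPM in soft (adjusted p = 0.0647), without overlap. ST6GALNAC5 was at 1.51 and 1.69 CPM (adjusted p = 0.588). Per length, ST6GALNAC2 held 37.9 ± 1.9% of the sialyltransferase sum in stiff and 29 ± 1.32% in soft, and ST6GALNAC1 held 4.11 ± 0.446% and 15.8 ± 0.943% (SD, n = 3). On the deposited TPM scale ST6GALNAC2 held 33.4% and 24.3%.

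**Figure D4:**
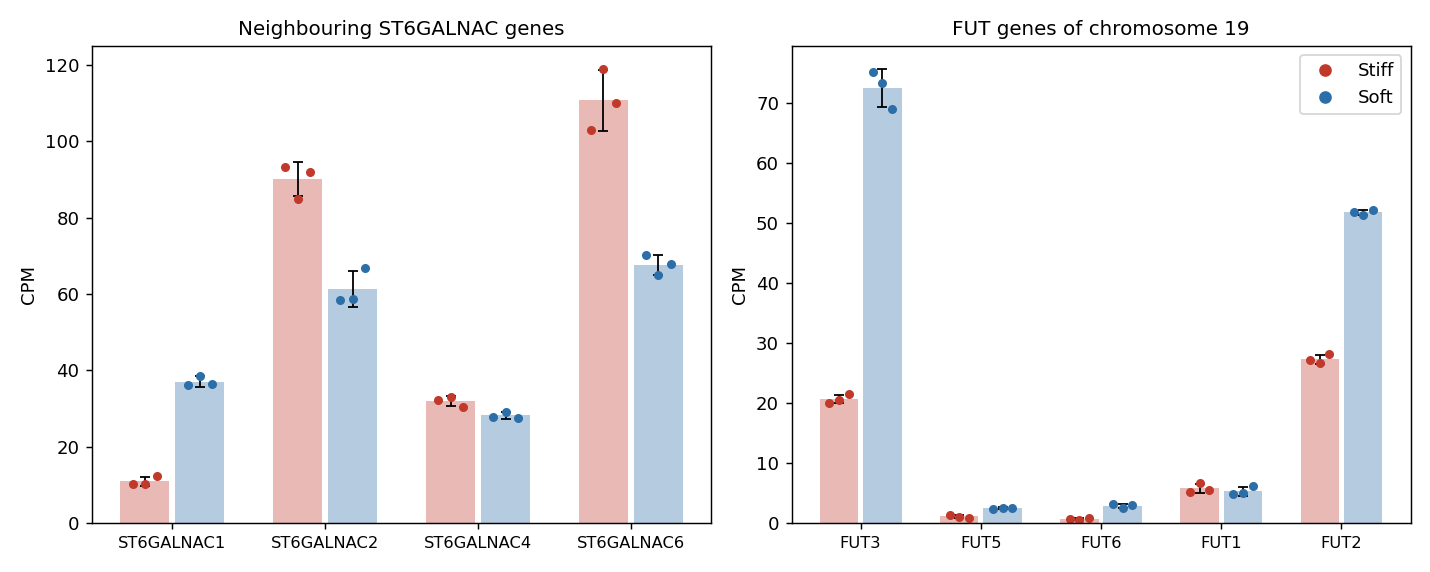
CPM (vertical axis) of neighbouring ST6GALNAC genes on chromosomes 17 and 9 (left panel) and of FUT genes on chromosome 19 (right panel); bars are means of 3 libraries, error bars the SD and points the libraries, with stiff left of soft. ST6GALNAC1 is lower and ST6GALNAC2 higher in stiff, and FUT2, FUT3, FUT5 and FUT6 are lower while FUT1 overlaps between the groups.

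Of the enzymes that sialylate galactose, ST6GAL1, which adds this cap to N-glycans, had 8.26, 6.03 and 8.09 CPM in stiff libraries, against 15.1, 14.4 and 16 CPM in soft libraries (2.04-fold lower, log2 fold change -1.03 ± 0.13 SE, adjusted p = 0.000133). ST3GAL1, which caps the core 1 O-glycan, had 5.83, 4.48 and 6.04 CPM in stiff libraries, against 12.3, 10.3 and 10.7 CPM in soft libraries (2.04-fold lower, log2 fold change -1.03 ± 0.14 SE, adjusted p = 0.000205). In both genes the highest stiff library was below the lowest soft library. ST3GAL6, which acts on lactosamine chains, had 2.93, 4.26 and 3.08 CPM in stiff libraries, against 1.18, 1.47 and 1.67 CPM in soft libraries (2.39-fold higher, log2 fold change 1.26 ± 0.22 SE, adjusted p = 0.000951). ST3GAL3, of similar acceptors, rose 1.28-fold to 12.3 ± 0.449 CPM in stiff, against 9.6 ± 0.871 CPM in soft (adjusted p = 0.0166). DCBLD2, on the opposite strand, covers only 3.74% of the ST3GAL6 exons. It had 2791 to 3989 counts per library, against 49 to 152 for ST3GAL6, so the ST3GAL6 count is uncertain. ST3GAL4 was at 21.7 ± 1.05 CPM in stiff and 22.1 ± 1.68 CPM in soft (adjusted p = 0.854). ST3GAL2, which caps O-glycans and gangliosides, had 14.2, 13.7 and 13.4 CPM in stiff libraries, against 14.7, 15.8 and 15.4 CPM in soft libraries (adjusted p = 0.17), a difference that passed with limma on the deposited TPM (adjusted p = 0.0341 to 0.0433).

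Of the ST8SIA enzymes, which join sialic acids to each other, ST8SIA6, known for O-glycan acceptors, had 3.77, 3 and 3.55 CPM in stiff libraries, against 6.91, 6.13 and 7.88 CPM in soft libraries (2.02-fold lower, log2 fold change -1.02 ± 0.15 SE, adjusted p = 0.00034). ST8SIA4, a polysialic acid synthase, was low at 0.322 and 0.364 CPM (adjusted p = 0.805). The sialyltransferase sum was 76.7 ± 0.496 CPM per kb in stiff and 68.2 ± 2.1 in soft (SD, n = 3). On the deposited TPM scale the sum was 57.7 ± 3.5 in stiff and 58.1 ± 2.08 in soft, so the difference depended on the scale. Per length, ST6GALNAC2 and ST6GALNAC6, whose counts are uncertain as given above, held 37.9% and 27.2% of the sum in stiff.

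Ganglioside synthesis follows a known order, and several of its genes are given here side by side. This grouping was made with the values in view. UGCG, which makes glucosylceramide and is outside the named families, was at 194 ± 4.03 CPM in stiff and 142 ± 8.45 CPM in soft (SD, n = 3, 1.37-fold higher, adjusted p = 0.000376). B4GALT5, the next step, fell as given above, and B4GALT6, which does the same step, was at 3.55 and 3.69 CPM (adjusted p = 0.849). ST3GAL5, which adds the first sialic acid, had 9.1, 9 and 8.48 CPM in stiff libraries, against 14.5, 13 and 15 CPM in soft libraries (1.6-fold lower, adjusted p = 0.000338). Of enzymes that act after ST3GAL5, ST8SIA1, B4GALNT1 and B3GALT4 rose. ST6GALNAC6, which acts on glycolipids and is given above, also rose, 1.64-fold. Of all tested genes 25.3% rose. ST8SIA1, which adds the second sialic acid, had 4.78, 4.6 and 4.74 CPM in stiff libraries, against 2.31, 1.26 and 3.05 CPM in soft libraries (2.14-fold, log2 fold change 1.10 ± 0.25 SE, adjusted p = 0.00502). B4GALNT1, which adds GalNAc to the sialylated lipid, had 13.7, 11.5 and 15.4 CPM in stiff libraries, against 6.74, 6.21 and 6.21 CPM in soft libraries (2.12-fold, log2 fold change 1.08 ± 0.13 SE, adjusted p = 8.16e-05). B3GALT4, which adds the galactose after it, had 23.6, 28.9 and 24.6 CPM in stiff libraries, against 14.1, 13.5 and 14.4 CPM in soft libraries (1.83-fold, log2 fold change 0.87 ± 0.10 SE, adjusted p = 5.99e-05). For ST8SIA1, B4GALNT1 and B3GALT4 the groups did not overlap. ST3GAL2 and ST6GALNAC5, which also act on later gangliosides, did not pass, with the values given above. SLC26A10 covers 26.7% of the B4GALNT1 exons on the opposite strand, at 51 to 170 counts per library, so the B4GALNT1 count is uncertain.

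Fucosyltransferases fell more often than they rose: of 9 tested, 5 fell, 1 rose and 3 did not pass (median log2 fold change -0.39). Of all tested genes 23.8% fell and 25.3% rose. The falls include FUT3, FUT5 and FUT6, paralogs that share sequence as given below, so these calls are not independent. FUT3 (Entrez 2525, chromosome 19, 5842888 to 5857122), the Lewis enzyme, had 20, 20.5 and 21.4 CPM in stiff libraries, against 75.2, 73.3 and 69 CPM in soft libraries. It fell 3.51-fold, with a narrow spread in both groups (log2 fold change -1.81 ± 0.07 SE, adjusted p = 1.51e-07). FUT2 (Entrez 2524, chromosome 19, 48695971 to 48705951), the secretor enzyme that makes the H antigen in mucosal epithelia, had 27.1, 26.6 and 28.1 CPM in stiff libraries, against 51.8, 51.3 and 52.1 CPM in soft libraries (1.9-fold lower, log2 fold change -0.92 ± 0.07 SE, adjusted p = 4.15e-06). FUT1, the H enzyme of red cells, lies 42.1 kb from FUT2 and was at 5.76 ± 0.778 CPM in stiff and 5.28 ± 0.753 CPM in soft (adjusted p = 0.496), with overlapping groups.

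FUT5 and FUT6 lie 8.7 kb and 3.19 kb from FUT3 and are its close paralogs. FUT6, which fucosylates plasma proteins when expressed in liver, had 0.725, 0.448 and 0.832 CPM in stiff libraries, against 3.15, 2.52 and 2.93 CPM in soft libraries (4.28-fold lower, log2 fold change -2.10 ± 0.25 SE, adjusted p = 8.34e-05). FUT5 had 1.36, 1.07 and 0.859 CPM in stiff libraries, against 2.36, 2.52 and 2.57 CPM in soft libraries (2.26-fold lower, log2 fold change -1.18 ± 0.21 SE, adjusted p = 0.00131). The genes share sequence. Of the words of 61 bases (the read length) in the longest FUT5 transcript, 17.8% also occur in FUT3 and 14.9% in FUT6, and 9.49% of those in FUT6 occur in FUT3. These were the only words of that length shared between members, in the longest coding transcript of each. FUT3 counts were far larger, so the split of reads leaves FUT5 and FUT6 uncertain. With the 3 genes summed to 1 row, the log2 fold change was -1.80 ± 0.07 SE (adjusted p = 1.25e-07).

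FUT8, the enzyme of core fucose on N-glycans, was at 19.7 ± 1.81 CPM in stiff and 25.8 ± 1.95 CPM in soft (SD, n = 3, 1.31-fold lower, adjusted p = 0.00736). FUT8-AS1 covers 12.3% of its exons on the opposite strand, at 43 to 128 counts per library. FUT11 alone rose, 1.47-fold to 23.5 ± 2.19 CPM in stiff, against 16 ± 1.34 CPM in soft (adjusted p = 0.0013). FUT4, a fucosyltransferase of myeloid Lewis x structures, was at 2.49 and 2.5 CPM, and FUT10 at 4.59 and 4.86 CPM (adjusted p = 0.998 and 0.69). PIWIL4, on the same strand, covers 11.3% of the FUT4 exons, at 2 to 17 counts per library. The fucosyltransferase sum was 25.7 ± 0.849 CPM per kb in stiff and 50.2 ± 0.775 in soft (SD, n = 3). FUT3 held 25.8 ± 0.988% of it in stiff and 46.5 ± 1.59% in soft, FUT11 held 18.6 ± 1.25% and 6.51 ± 0.571%, and FUT2 held 31.3 ± 0.508% and 30.5 ± 0.476%. On the deposited TPM scale the share of FUT2 was 47.6% in stiff and 54.5% in soft.

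Genes that make, move or release the sugars were counted in 5 further lists. Beside each of their counts, 25.3% of all tested genes rose and 23.8% fell. In sugar nucleotide synthesis, 6 of 17 rose and 7 fell (median log2 fold change -0.02). GFPT1, which starts the hexosamine pathway, was at 91.2 ± 2.42 CPM in stiff and 158 ± 6.78 CPM in soft (SD, n = 3, adjusted p = 7.79e-06), and GNPNAT1 of the same pathway fell 1.46-fold. GFPT2, which does the same first step, rose 1.26-fold (adjusted p = 0.0223), and UAP1, which makes UDP-GlcNAc at its end, rose 1.32-fold (adjusted p = 0.00104), so the pathway's genes went both ways. GALK1, which activates galactose, rose 2.06-fold (adjusted p = 2.76e-05). GFUS, which completes GDP-fucose, fell 1.81-fold to 27.2 ± 0.943 CPM in stiff, against 49.3 ± 4.57 CPM in soft (adjusted p = 2.94e-05). Of 10 Golgi transporters of sugar nucleotides, 1 rose and 4 fell (median -0.09). SLC35C1, which carries GDP-fucose, was at 19.1 ± 2.66 CPM in stiff and 34.3 ± 1.19 CPM in soft (adjusted p = 0.000118), and SLC35A2, which carries UDP-galactose, fell 1.45-fold. SLC35A4 fell 1.31-fold and SLC35D1 rose 1.49-fold.

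Among 9 tested glycan-removing enzymes, 4 rose and 4 fell (median 0.05). The fucosidases FUCA1 and FUCA2 fell 1.89-fold and 1.35-fold, while HEXA, which encodes part of a lysosomal glycosidase, rose 1.27-fold. Read across these lists, 6 of 8 genes of fucose supply and removal fell and 0 rose: GMDS, GFUS, FCSK, SLC35C1, FUCA1 and FUCA2, with FPGT and SLC35C2 not past the threshold. That set was put together after the values were seen, from lists in which other genes rose; of all tested genes 23.8% fell. In N-glycan trimming and branching, 2 of 11 rose and 3 fell (median -0.11). MGAT4A, a branching enzyme, was at 5.91 ± 0.783 CPM in stiff and 14.8 ± 0.997 CPM in soft (adjusted p = 1.61e-05), MGAT5 fell 1.33-fold, MGAT1 rose 1.16-fold and the low MGAT3 rose 2.49-fold. Of 7 tested further glycosyltransferases, 2 rose and 2 fell (median -0.13). C1GALT1, which makes the core 1 chain that ST3GAL1, B3GNT3 and GCNT1 act on, was at 71.5 and 78.2 CPM and its chaperone C1GALT1C1 at 17.2 and 19.2 CPM (adjusted p = 0.167 and 0.266). ABO, the blood group enzyme that uses the FUT2 product, was at 1.21 ± 0.173 CPM in stiff and 0.403 ± 0.099 CPM in soft (SD, n = 3, 3.02-fold higher, adjusted p = 0.00156). B3GALNT1 and B3GALNT2 fell 1.78-fold and 1.26-fold.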

How the data were processed

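RNA of Cal27 spheroids in stiff or soft Matrigel (3 libraries each) was sequenced after polyA selection with a directional kit, per the labels. The submitters' processing notes name STAR 2.6.1e, featureCounts 1.6.2 and the build hg38, with cutadapt 1.9.1 and Trim Galore 0.4.2. Which annotation, strand setting and multi-mapping rule were used is not given in these sources. The authors deposited whole-number counts per gene symbol, not normalized, and TPM per library to 1 decimal.

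Counts were tested with edgeR 4.0.16 in R 4.3.3 (default filter, TMM, quasi-likelihood F test, no covariate) over 18676 genes with Benjamini-Hochberg adjustment at 0.05. The SE is the absolute log2 fold change over the square root of F. Members and lists were chosen with earlier results of these data known. Library values are printed for members changed at least 2-fold, the highest by TPM and up to 2 with the smallest p in each family, 31 in all, and for up to 4 genes per further list, with 1 gene of these not reported here; C1GALT1, C1GALT1C1, GFPT2, UAP1 and the remaining members are added beside their counts. Alternatives used DESeq2 1.42.0 and limma 3.58.1, and the fit was tested on simulated data. The unit CPM is computed from the deposited counts; CPM per kb divides it by merged exons of GENCODE release 29. Overlapping genes cannot be told apart: TALAM1, antisense to MALAT1, had 92.7% to 94.3% of its count. Partners over at least 10% of a tested member's GENCODE exons are stated, and DCBLD2 is added for ST3GAL6. All 78 members matched RefSeq positions (GRCh38.p14). Replicates differed by more than counting noise (chi-square over degrees of freedom, 3.39 to 33.38), so none was a repeat deposit. Intervals cover counting error only.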

Additional observations from a re-analysis of the deposited data

How the results depend on the processing

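DESeq2, other scaling factors, library size only, other count filters, a robust fit and an adjusted p below 0.01 each left the counts over all members and in each enzyme class within 1.5 times of those reported. With any single library left out, between 15 and 16 members were higher and between 22 and 23 were lower. Requiring at least 1.5-fold left 8 members higher (GALNT 1, sialyltransferases 3, fucosyltransferases 0, B3GNT and GCNT 1). With limma on log2(TPM + 1) and a mean TPM of at least 1, 10 members were higher (sialyltransferases 2; galactosyl and GalNAc enzymes 1), with 3 sialyltransferases and 3 fucosyltransferases lower. On log2(TPM + 0.1), 9 were higher (GALNT 1, sialyltransferases 2, galactosyl and GalNAc enzymes 1), with 3 sialyltransferases and 3 fucosyltransferases lower; members with a mean TPM under 1 are not tested under that filter. On log2(TPM + 1) without a filter, 1 GALNT and 0 fucosyltransferases were higher. TPM moved the median of all genes by -0.09 to -0.11 under the filter. The replicate number as a block gave 16 higher and 22 lower and changed no class count. Same-numbered libraries correlated in their deviations at 0.05 to 0.216, not above 0.1 in every pair, so the numbers were not taken as pairs.

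The 31 named members gave 537 results over 18 alternative settings, not counting the 1.5-fold requirement. That requirement drops the calls of GALNT2 (1.33-fold), ST6GALNAC2 (1.47-fold), GCNT1 (1.49-fold) and B4GALT7 (1.42-fold). Of the 537, 528 kept direction and side of the threshold, and 2 lost a call (GALNT2, given above). A call was gained in 5 (ST3GAL2 and B3GNT9 with limma on TPM), and 2 turned sign. The sign turned for GCNT7, never past the threshold. Its log2 fold change was 0.12 without soft replicate 1 and 0.05 without stiff replicate 1, in a range of -0.80 to 0.12 over single libraries left out. Chosen after seeing the data, shares by CPM per kb in place of TPM were 35.7% in stiff and 26.3% in soft for GALNT2, 37.9% and 29% for ST6GALNAC2, 31.3% and 30.5% for FUT2, 12.2% and 13.5% for B3GNT9 (TPM: 25.5% and 26.9%), and 34.5% and 51.7% for B4GALT5. Members under 1 CPM (5 tested) had wide standard errors, and the 18 untested genes give no comparison at this depth.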
